A study of Strongylocentrotus purpuratus with 17 samples.

Results

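The 4 collagen genes COLP1alpha, COLP2alpha, COLP3alpha and COLP4alpha of the purple sea urchin, Strongylocentrotus purpuratus, form 2 pairs of neighbours, and the regulatory elements listed around them at 4 embryonic stages are described here. An element was taken when its midpoint lay in one of the genes or within 10 kb of it, and an element near both genes of a pair was counted once. This gave 18 of the 56158 elements listed at 8 h, 8 of 30570 at 12 h, 18 of 37796 at 20 h and 2 of 4425 at 72 h. Joined over the stages wherever they overlapped by at least 1 bp, they made 25 of the 75451 regions of the 4 lists.

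The lists came from PRO-seq, in which RNA polymerases engaged on the DNA run on in isolated nuclei with labelled nucleotides and the new RNA is sequenced. From such data dREG calls elements, promoters and enhancers alike, by the transcription that leaves them in both directions. All groups were whole embryos of genotype "Wild" raised at 15 °C: 2 libraries of 1 biological replicate at 8 h, 4 libraries of 3 at 12 h, 5 libraries of 4 at 20 h and 2 libraries of 2 at 72 h. Stages were read from the sample titles, because the tissue field names the hatching blastula of 8 h for every library. Libraries of 12 h and 20 h had been published before and were re-analysed with the others, so a difference between 8 h or 72 h and those stages cannot be told apart from a difference between sets of libraries. Each stage had 1 list, not 1 per library, with no score and no read number, so no value has a replicate error, the depth is unknown and no test between stages was made. The 72 h list was 12.7-fold shorter than the 8 h list. Because whole embryos were used, an element in use in few cells and an element used weakly in many cannot be told apart.

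Collagens are the main fibre and sheet proteins of the extracellular matrix. In sea urchins COLP1alpha and COLP2alpha encode fibrillar collagen chains, which assemble into fibres, and COLP3alpha and COLP4alpha encode type IV chains, which form the sheets of basement membranes. Mesenchyme cells of the embryo make collagen, and gastrulation and the growth of the larval skeleton need a collagen matrix. In vertebrates, type IV collagen genes lie in couples that are read away from each other from a shared stretch of DNA. The annotation used here gave no strand, so the ends of each gene are called lower and higher by their coordinate, and which end is the start of transcription was not tested.

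COLP1alpha (NCBI gene 373267) spans NW_022145612.1 positions 37381783 to 37424147 of the Spur_5.0 genome, 42.4 kb. COLP2alpha (373268) follows at 37436858 to 37505999, 69.1 kb, after a gap of 12.7 kb. On NW_022145597.1, COLP4alpha (373269) lies at 19985252 to 20059413, 74.2 kb, and COLP3alpha (373182) at 20068789 to 20119095, 50.3 kb, with 9.38 kb between them. The scaffolds were inferred from the order of genes in the annotation and the 8 h list, since the annotation gave positions alone. No annotated gene lay in either gap. The COLP1alpha and COLP2alpha neighbourhood of 144 kb held no other gene. That of COLP4alpha and COLP3alpha, 154 kb, also touched LOC590817 below and LOC763460 above and held 2 long non-coding RNA genes, LOC115922683 and LOC115922682, inside COLP4alpha.

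The pairs differed in how many elements they held. The fibrillar pair of COLP1alpha and COLP2alpha had 4, 1, 3 and 2 distinct elements at 8 h, 12 h, 20 h and 72 h. The type IV pair of COLP4alpha and COLP3alpha had 14, 7, 15 and 0 at the same stages. The type IV pair thus had more elements at 8 h, 12 h and 20 h and fewer at 72 h. With each list scaled to its length, the fibrillar pair had 0.712, 0.327, 0.794 and 4.52 elements per 10000 listed in stage order, and the type IV pair 2.49, 2.29, 3.97 and 0. On this scale 72 h was the highest stage of the fibrillar pair and the lowest of the type IV pair. The high value rests on 2 elements of the shortest list, and by number the fibrillar pair had more at 8 h and 20 h. Both stood at gene ends, as did 66.8% of the placed elements at 72 h and 26.9% at 8 h. With 2 elements the scaled values cannot decide whether the fibrillar pair had a peak at 72 h, and this was not tested.

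**Figure D1:**
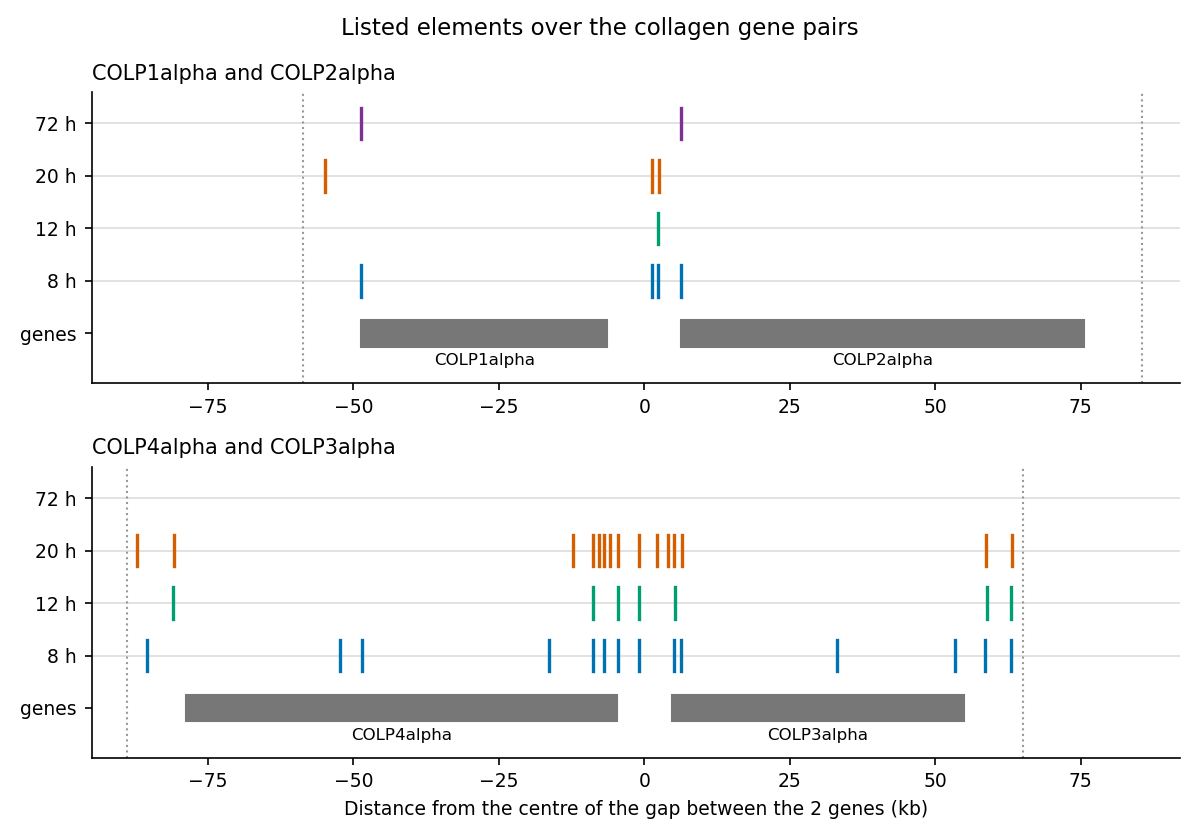
Each vertical line is the midpoint of a listed element at the stage named on the left, placed by its distance in kb from the centre of the gap between the genes of the pair. Grey bars are the genes and dotted lines the limits of the neighbourhood, and the element lines of the fibrillar pair all stand outside the gene bodies, while those of the type IV pair crowd around the gap at 20 h.

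Against windows of the same length laid end to end over the 21 scaffolds with placed genes, the fibrillar pair was on the sparse side at 8 h and 12 h. Windows of 144 kb had medians of 9, 4, 5 and 0 elements in stage order. As few as the fibrillar pair or fewer were found in 16.9% of windows at 8 h, 15.1% at 12 h and 35.4% at 20 h, while 19.1% had 2 or more at 72 h. The type IV pair was on the dense side, with 20.5% of 154 kb windows holding as many or more at 8 h, 32.4% at 12 h and 8.16% at 20 h. At 72 h, 56.0% of these windows were empty, as the type IV pair was. Both pairs thus lay inside the range of the genome, the fibrillar pair below and the type IV pair above the median window at 8 h, 12 h and 20 h.

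**Figure D2:**
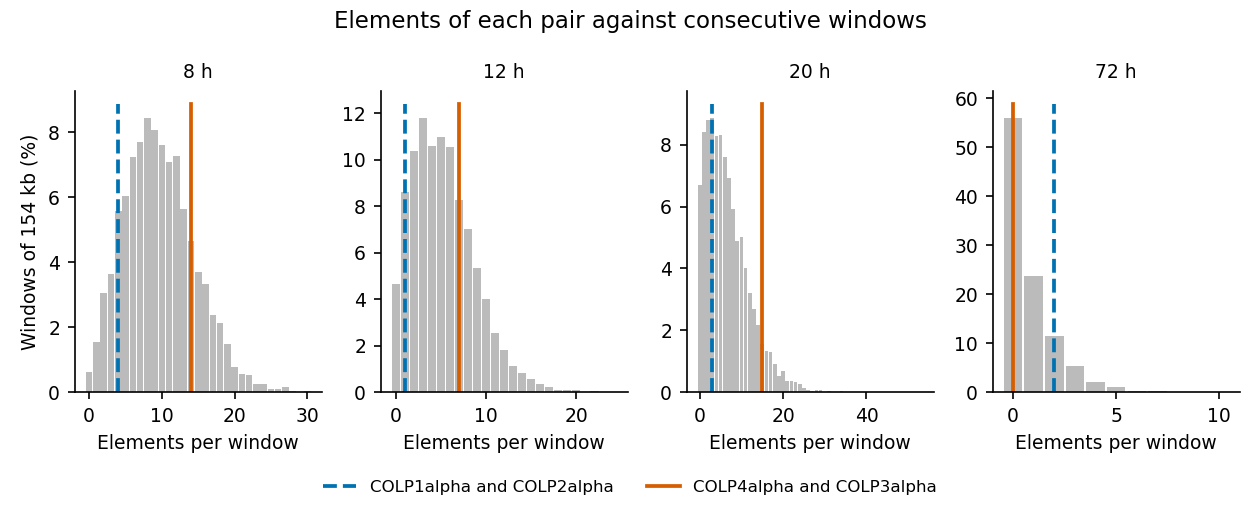
Grey bars give the percentage of consecutive 154 kb windows with each number of elements, 1 panel a stage with its own scales. The solid line is the type IV pair and the dashed line the fibrillar pair, which was set against windows of 144 kb in the text; the pairs lie on opposite sides of the median window at 8 h, 12 h and 20 h.

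Gene by gene, COLP1alpha had 3, 1, 3 and 1 elements at 8 h, 12 h, 20 h and 72 h, and COLP2alpha had 3, 1, 2 and 1. COLP4alpha had 9, 5, 12 and 0, and COLP3alpha had 8, 5, 8 and 0. Elements near both genes of a pair count for each here: 2, 1, 2 and 0 in the fibrillar pair and 3, 3, 5 and 0 in the type IV pair. The 4 genes had medians of 5.5, 3, 5.5 and 0.5, against 2, 1, 1 and 0 for all 24774 placed protein-coding genes. All 4 are long, longer than 92.7% to 98.3% of those genes. The 1681 protein-coding genes of 40 to 80 kb had medians of 4, 2, 3 and 0, with interquartile ranges of 3 to 6, 1 to 4, 1 to 5 and 0 to 1. COLP4alpha and COLP3alpha stood above the interquartile range of this class at 8 h, 12 h and 20 h, and COLP1alpha and COLP2alpha stood within it at all 4 stages. At 20 h, 2.44% of the class had as many elements as COLP4alpha or more, and 9.58% as many as COLP3alpha or more.

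**Figure D3:**
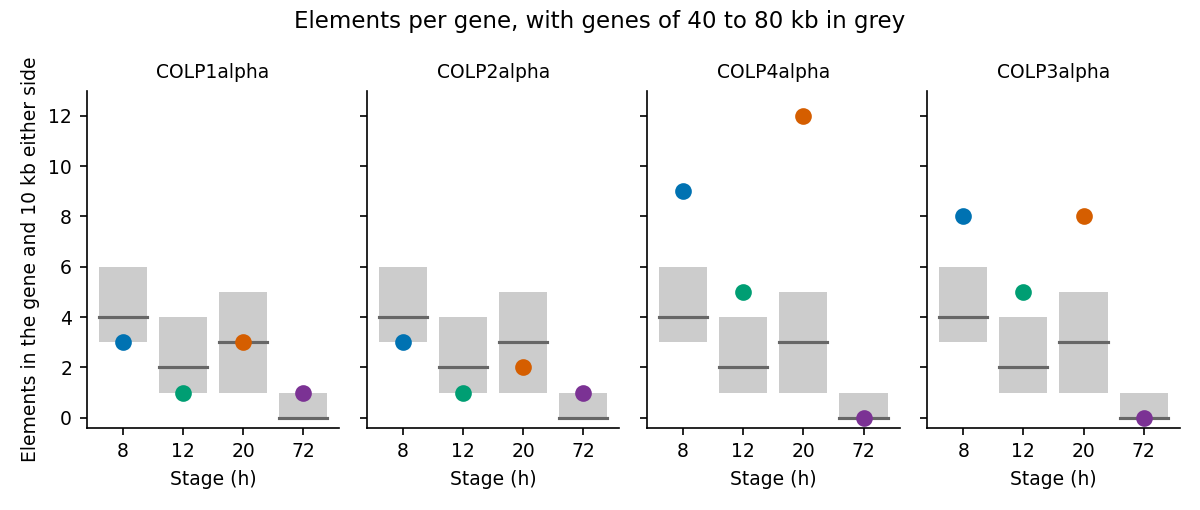
Points give the number of elements in each gene and 10 kb either side by stage in hours. Grey boxes span the interquartile range and grey lines the median of protein-coding genes of 40 to 80 kb, and the points of COLP4alpha and COLP3alpha lie above the boxes until 20 h and at 0 at 72 h.

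From 8 h to 12 h all 4 genes had fewer elements, as had 59.1% of protein-coding genes and 77% of those of 40 to 80 kb. COLP1alpha and COLP2alpha each had 2 fewer, COLP3alpha 3 fewer and COLP4alpha 4 fewer, with a median difference of -2.5 against -2 in the length class. From 12 h to 20 h all 4 genes had more, against 33.5% of protein-coding genes and 51.5% of the length class. The gain was 7 at COLP4alpha, 3 at COLP3alpha, 2 at COLP1alpha and 1 at COLP2alpha. A gain of 7 or more was found at 2.86% of the class, whereas a gain of 1 or more was found at 51.5%, so COLP2alpha did as most of the class did. From 20 h to 72 h all 4 had fewer, as had 66.7% of protein-coding genes and 86.2% of the class. COLP4alpha had 12 fewer and COLP3alpha 8 fewer, which 1.43% and 7.14% of the class matched or passed. Losses of 12 and 8 need at least as many elements at 20 h, which 2.44% and 9.58% of the class had. The low shares thus largely repeat the high counts of 20 h. COLP1alpha had 2 fewer and COLP2alpha 1 fewer, which 68.1% and 86.2% of the class matched or passed. The neighbours of a pair share elements, so these are not 4 separate observations.

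The stages with gene-end elements were partly different in the 2 pairs, a difference that was not tested. An element was placed at a gene end when it overlapped 500 bp either side of it. At 8 h all 4 genes had one, against 49.5% of protein-coding genes. At 12 h 2 of 4 had one, against 39.6%, and these were COLP4alpha and COLP3alpha. The same 2 genes had one at 20 h, against 43.2%. At 72 h 2 of 4 had one, against 12.4%, and these were COLP1alpha and COLP2alpha. In the length class the shares of genes with one were 64.7%, 54.9%, 58.7% and 19.9% at 8 h, 12 h, 20 h and 72 h. The 2 of 4 genes at 12 h and at 20 h were thus near the shares of both sets.

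At COLP1alpha the gene-end element stood at the lower end at 8 h (37381521 to 37381990, 470 bp) and at 72 h (37381441 to 37381980, 540 bp). The midpoints lay 28 and 73 bp from that end, and the 2 elements had 460 bp in common. At 12 h the nearest element was 50.9 kb away, and at 20 h it was 5.82 kb away, at 37375361 to 37375960. The lower end of COLP1alpha was thus free of elements at both of these stages.

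COLP2alpha had the same stages. Its lower end carried an element at 8 h (37436501 to 37437050, 550 bp) and at 72 h (37436491 to 37437150, 660 bp), with midpoints 83 and 38 bp from it, and the 8 h element lay wholly inside the 72 h one, 550 bp in common. At 12 h and 20 h the nearest element was 3.69 and 3.64 kb away, in the gap. The higher ends of both genes had none within 500 bp at any stage, and the nearest was 7.25 kb from that of COLP1alpha, at 8 h.

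This pair of stages was uncommon among genes. A gene-end element at 8 h and 72 h and at neither 12 h nor 20 h was found at 16 of 24774 protein-coding genes, 0.0646%, and COLP1alpha and COLP2alpha were 2 of them. Of the other 14, blimp1/krox, a zinc finger regulator of endoderm, and REJ9 were those with a symbol other than a locus number. Genes whose ends had an element in the 72 h list but none in the 20 h list numbered 57, or 0.23%. Of these, 34 had none at 12 h either. Only the 3076 genes with a gene-end element at 72 h could have the pattern, so most of the 24774 could not show it. Counted by single ends, 17 of 49548, 0.0343%, had an element at 8 h and 72 h alone. The scaffold of COLP1alpha and COLP2alpha held 6 of the 16 genes, against 8.47% of all placed protein-coding genes. These 6 include COLP1alpha and COLP2alpha, which lie on it by the choice of scaffold, so the comparison is not an even one. The count was looked up after the pattern had been seen, and it carries no test. The 8 h and 72 h lists were also those made from the newer libraries, so stage and set of libraries cannot be told apart in this pattern.

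**Figure D4:**
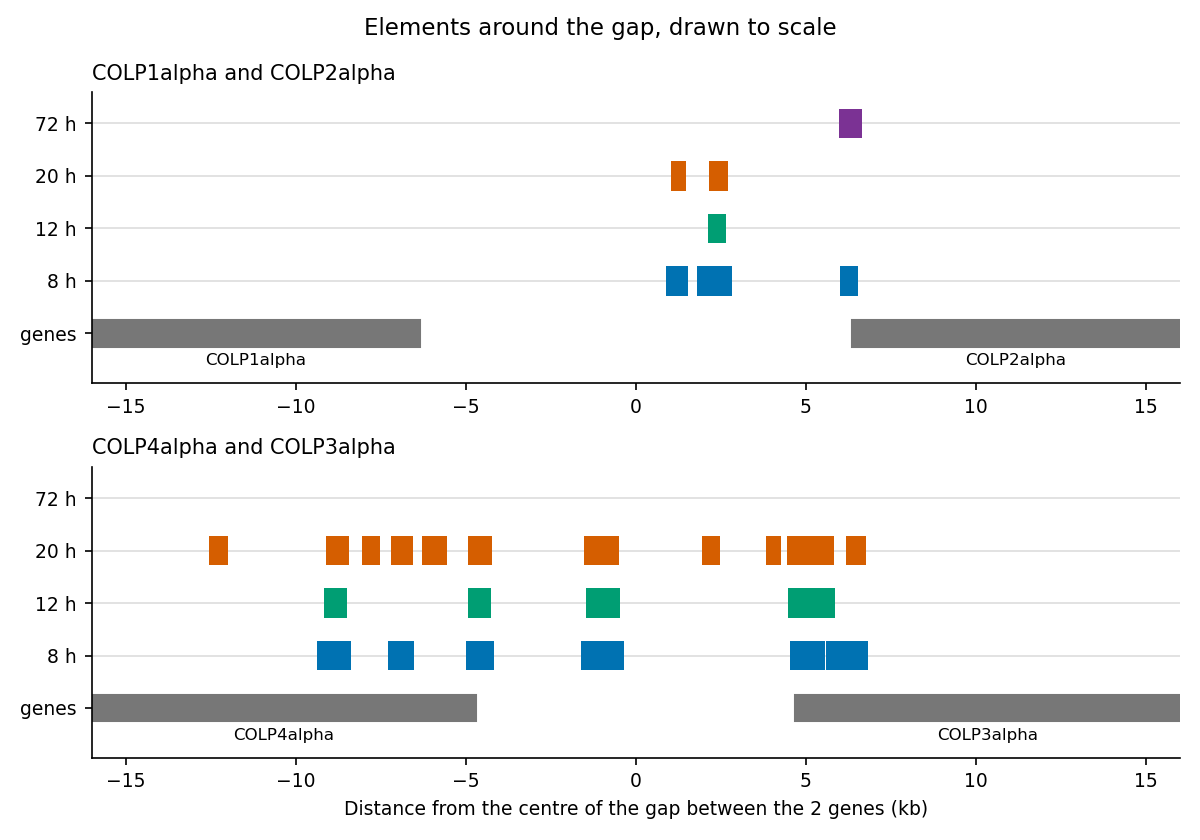
Listed elements within 16 kb of the centre of each gap, drawn to scale in width, with the genes as grey bars and 1 row a stage. In the fibrillar pair the element at the lower end of COLP2alpha, near 6.3 kb, is present at 8 h and 72 h, the elements near 1.2 and 2.4 kb are listed at 8 h and 20 h, the latter also at 12 h, and in the type IV pair both gene ends facing the gap are covered at 8 h, 12 h and 20 h.

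Between COLP1alpha and COLP2alpha the elements away from the ends shared the 8 h list with those at the ends and differed from them at 20 h and 72 h. One region at 37432321 to 37433330, with midpoints 3923 to 4033 bp below COLP2alpha, was listed at 8 h, 12 h and 20 h with widths of 1010, 530 and 570 bp. It was the sole element of the pair at 12 h. A second region, at 37431401 to 37432040, was listed at 8 h (640 bp) and 20 h (440 bp). At 72 h both were absent from the list, and the elements at the gene ends were present. Within the bodies of COLP1alpha and COLP2alpha no element had its midpoint at any of the 4 stages, which held for 92 of the 1681 genes of 40 to 80 kb, 5.47%. The gene-end elements of 8 h and 72 h reached into these bodies, with midpoints just below the lower ends. The bodies of the type IV genes together held 9, 2, 7 and 0 at 8 h, 12 h, 20 h and 72 h. The element at the COLP3alpha end is among those of 8 h, 12 h and 20 h, since its midpoint lay inside the gene. This contrast thus depends in part on the midpoint rule.

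The stretch over COLP2alpha was empty well past its higher end. The run of DNA without an element that covers the middle of COLP2alpha measured 108 kb at 8 h, 171 kb at 12 h, 126 kb at 20 h and 710 kb at 72 h. Spacings between neighbouring elements had medians of 7.89, 14.3, 8.54 and 77.8 kb, and 0.7%, 1.51%, 2.68% and 5.36% of them were at least as long. Over COLP1alpha the run measured 49.4 kb at 8 h, 109 kb at 12 h, 55.6 kb at 20 h and 54.5 kb at 72 h, and 5.98%, 4.35%, 10.2% and 59.6% of spacings were at least as long. A run chosen because it covers a long gene without elements is bound to be long, so these shares are a description and support nothing. The nearest elements outside the neighbourhood of the pair lay 29.5 kb below COLP1alpha and 39.0 kb above COLP2alpha, both at 8 h.

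The type IV pair had its gene-end elements at the ends that face each other. The higher end of COLP4alpha carried an element at 8 h (20059111 to 20059920, 810 bp), at 12 h (20059181 to 20059840, 660 bp) and at 20 h (20059161 to 20059880, 720 bp). The midpoints lay 102, 97 and 107 bp from the end, so the element kept its place to within 10 bp. The lower end of COLP3alpha carried an element at 8 h (20068651 to 20069670, 1020 bp), at 12 h (20068581 to 20069960, 1380 bp) and at 20 h (20068551 to 20069930, 1380 bp). Those of 12 h and 20 h were wider than 94.3% and 95.8% of their lists.

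COLP3alpha also had further elements beside that end. At 8 h a second one lay 20 bp beyond the first, at 20069691 to 20070930. At 20 h one lay at 20070301 to 20070860, and another at 20067931 to 20068380, with its midpoint 634 bp below the end. The outer ends of both type IV genes had no element within 500 bp at any stage. Gene-end elements at 8 h, 12 h and 20 h and not at 72 h, as both type IV genes had, were found at 21.5% of protein-coding genes, and by single ends at 10.9%.

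In the gap itself one region near its centre, at 20062481 to 20063750, was listed at the same 3 stages, with widths of 1270, 990 and 1010 bp. The gap held 2, 2, 4 and 0 element midpoints in stage order. Among 9128 gaps of 5 to 20 kb between consecutive protein-coding genes, 16% held 2 or more at 8 h, 6.83% at 12 h, and 1.23% held 4 or more at 20 h. The gap of the fibrillar pair held 3, 1, 2 and 1, which 4.94%, 28.8%, 10.0% and 7.04% of these gaps reached. Both gaps were thus fuller than most at 8 h, since 45.2% of gaps had any element at that stage.

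At 20 h the elements of the type IV pair crowded around the gap. Within 10 kb of the facing ends, a stretch of 29.4 kb marked out after the values had been seen, lay 6 of 14 elements at 8 h, 4 of 7 at 12 h and 11 of 15 at 20 h. The 11 ran from 20051551 to 20070860, with midpoints 0.9 to 3.58 kb apart. Consecutive windows of 29.4 kb had a mean of 1.27 elements at 20 h, and 0.0959% of them had 11 or more. Windows with as many as the pair were 2.97% at 8 h and 4.24% at 12 h. A stretch centred on elements tends to hold more than a window on a fixed grid, so these shares are a description.

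The 12 h list kept the core of this stretch and the 20 h list added to it. The 4 elements of 12 h were those at the COLP4alpha end, at the centre of the gap, at the COLP3alpha end and at 20054931 to 20055610 inside COLP4alpha, and each overlapped elements of 8 h and of 20 h. The region at 20056811 to 20057570, inside COLP4alpha, was listed at 8 h (760 bp) and 20 h (660 bp) and not at 12 h. Regions of 20 h alone were 16.8% of all regions of the lists and 6 of the 20 of this pair, a difference that was not tested. Of these 6, 5 lay in the stretch, at 20051551 to 20052120, 20056061 to 20056580, 20057831 to 20058560, 20066061 to 20066590 and 20067931 to 20068380. The first 3 lie inside COLP4alpha and the last 2 in the gap.

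Regions listed at 8 h alone lay elsewhere in the type IV pair. There were 6 among the 20 regions of this pair, against 34.8% of all regions of the lists, a difference that was not tested. Of the 6, 0 fell within 10 kb of the facing ends, a limit set after the values had been seen. The nearest had its midpoint 11638 bp from the higher end of COLP4alpha. The stretch within the limit made up 29.4 of the 154 kb of the neighbourhood, and whether these regions avoided it was not tested. Inside COLP4alpha they stood at 20011591 to 20012040, 20015421 to 20015860 and 20047551 to 20048000, and inside COLP3alpha at 20096931 to 20097390 and 20117111 to 20117670. The sixth, at 19978391 to 19978980, lay 6.57 kb below COLP4alpha, inside LOC590817. They were narrow, from 440 to 590 bp with a median of 455, where regions of 8 h alone had a median of 550 bp over the whole list. The 8 h and 20 h totals of 14 and 15 were therefore made up of partly different places: 8 of the 14 elements of 8 h, 57.1% (95% Wilson interval 32.6 to 78.6), overlapped a 20 h element, and 8 of the 15 of 20 h, 53.3% (30.1 to 75.2), an 8 h element. Over the whole lists these shares were 40.8% and 61.2%.

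On the outer sides of the type IV pair, 2 regions above COLP3alpha were listed at 8 h, 12 h and 20 h. One, at 20122111 to 20123410, lay at the lower end of LOC763460, the next gene, and so counted for COLP3alpha by distance while standing at the end of another gene. The other, at 20126721 to 20127580, lay inside LOC763460. Below COLP4alpha, a region at 19982501 to 19983600 was listed at 12 h (1100 bp) and 20 h (600 bp), in the space between LOC590817 and COLP4alpha, and one at 19976501 to 19977210 at 20 h alone, inside LOC590817. Just outside the 10 kb limit, the nearest elements were 12.6 kb below COLP4alpha and 13.8 kb above COLP3alpha, both at 20 h, against 8.4 and 8.1 kb for the farthest ones inside.

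Counted over stages, the fibrillar pair had 5 regions, of which 1 was listed at 1 stage, 3 at 2 and 1 at 3. The type IV pair had 20, of which 12 were listed at 1 stage, 2 at 2 and 6 at 3. Neither pair had a region listed at all 4 stages. Over all 75451 regions, 58.7% were listed at 1 stage, 19.2% at 2, 17.3% at 3 and 4.86% at 4. Those of the type IV pair had shares of 60%, 10%, 30% and 0% at 1, 2, 3 and 4 stages, and with 20 regions no difference from the whole was tested.

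For the 7 regions listed at 8 h, 12 h and 20 h, 1 in the fibrillar and 6 in the type IV pair, element widths were summed by stage. They were wider at 8 h than at 12 h in 7 of 7 cases. Among all 12726 regions with these stages 66.4% were. They were wider at 20 h than at 12 h in 6 of 7, against 42.1% of all such regions. At the COLP3alpha end this came from a second element at 20 h, since the end element was 1380 bp at both stages. Some of the other differences were small, such as 990 and 1010 bp near the centre of the type IV gap. Medians were 1010, 790 and 720 bp at 8 h, 12 h and 20 h, against 870, 760 and 730 bp. In the 6 of them with 1 element a stage, midpoints shifted by 5 to 325 bp between consecutive stages.

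**Figure D5:**
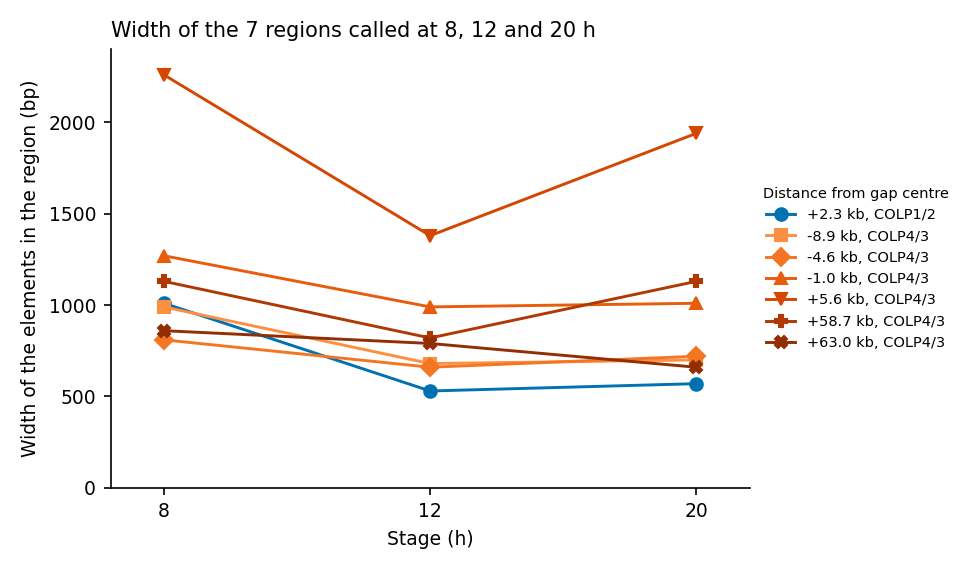
Summed width in bp of the elements in each of the 7 regions of the pairs listed at 8 h, 12 h and 20 h, by stage in hours, each region named by its distance from the centre of its gap. All 7 lines fall from 8 h to 12 h, and the region at the lower end of COLP3alpha, with 2260, 1380 and 1940 bp, is the widest at each stage.

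The elements of 20 h were absent from the 72 h list at both pairs. Of the 15 elements the type IV pair had at 20 h, 0 overlapped a 72 h element, with an upper Wilson limit of 20.4%. The 72 h list had no element in the neighbourhood of this pair, so its overlaps of 0 follow from that absence and add nothing to it. The limit takes the 15 elements as separate trials, although 11 of them lay in the stretch around the gap, so it may be too low. The fibrillar pair had 0 of 3 at 20 h and 0 of 1 at 12 h overlapping a 72 h element, and the type IV pair 0 of 7 at 12 h and 0 of 14 at 8 h, while 2 of the 4 elements the fibrillar pair had at 8 h did overlap one. Over the whole 20 h list the share was 10.8%, for gene-end elements 24.1% and for elements away from gene ends 4.96%. At this number of elements a loss larger than that of the list was not detectable. The nearest 72 h elements were 549.7 kb below COLP4alpha and 133 kb above COLP3alpha. The run without an element between them measured 816 kb. Spacings between neighbouring 72 h elements had a median of 77.8 kb, and 4.1% were at least as long. A run that covers a place without elements is bound to be long, so this share is a description. Among the 502 protein-coding genes with at least 8 elements at 20 h, 163 had none at 72 h, 32.5%.

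The 2 elements of 72 h at the fibrillar pair overlapped 8 h elements in 2 of 2 cases and 12 h or 20 h elements in 0 of 2. Over the whole 72 h list 90.9% overlapped an 8 h element, 87.8% a 12 h element and 93% a 20 h element. For the gene-end elements of that list, the kind to which both belong, the shares were 96.3%, 94.7% and 96.4%. Regions of 8 h and 72 h alone numbered 53 of 75451, 0.0702%, and the fibrillar pair held 2 of them. Most regions could not have this pattern, since the 72 h list had 4425 elements in all.

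Other genes were set beside the members by the sum of the differences in element number over the 4 stages, among 245 placed protein-coding genes with a symbol other than a locus number. SERCA, whose product pumps calcium into internal stores, had the numbers of COLP1alpha, 3, 1, 3 and 1, and rib74 those of COLP2alpha, 3, 1, 2 and 1. Both had gene-end elements at all 4 stages, which COLP1alpha and COLP2alpha did not. Next came rab8 for COLP1alpha with 3, 2, 3 and 1, and SERCA for COLP2alpha. Tbx2/3, a T-box transcription factor gene, was nearest to COLP4alpha with 10, 5, 13 and 1, a summed difference of 3, and Elk followed with 7, 5, 11 and 1. TPC1, with 8, 7, 8 and 1, and EGFIII, with 7, 6, 7 and 0, were nearest to COLP3alpha. Likeness was measured over 4 stages only. With rab8 itself counted, 4 genes were at its distance from COLP1alpha. With SERCA itself counted, 6 were at its distance from COLP2alpha.

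Of the matrix genes looked for by symbol, such as laminin, nidogen, perlecan and peroxidasin genes, 3 could be matched. SPARC, which encodes a collagen-binding matrix protein, had 5, 4, 2 and 0 elements. The lysyl oxidase gene lox, whose product cross-links collagen, had 6, 4, 7 and 1, and its relative LOXL2 had 9, 5, 3 and 0. From 12 h to 20 h lox had more elements, as the 4 collagen genes had, while SPARC and LOXL2 had fewer, as had 22.5% of protein-coding genes and 22.8% of those of 40 to 80 kb. All 3 had fewer at 12 h than at 8 h, as had 59.1% of protein-coding genes, and fewer at 72 h than at 20 h, as had 66.7%.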

How the data were processed

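The deposited lists, 1 per stage, give scaffold, start and end of dREG peaks in 3 columns, on Sp 5.0 per the labels. For the aligner, the caller's settings and the pooling, details were not given in the sources used here. Positions are printed counted from 1. The 4 libraries of quick PRO-seq and red spherule cells were not analysed here. Gene positions came from a RefSeq table of Spur_5.0 without scaffold or strand. Its 21 runs of 900 genes or more were each assigned to the scaffold with the largest share of gene ends within 500 bp of an 8 h element (18.8% to 33.6%, next best 8.3% to 14.2%), which placed 30064 of 33490 genes. For the 100 genes around each pair this scaffold also came first of the 21 by the 8 h, 12 h and 20 h lists, and by the 72 h list for the fibrillar pair; for the type IV pair at 72 h it had 2.5% against 5.5%. Named genes were the members, genes touching their neighbourhoods, the 2 nearest per member by element numbers and the matrix list. Descriptions were not used, so that list was matched by symbol. Members and lists were chosen with earlier results of these data known. Counting and placement, written in Python 3.11.15 with numpy 2.4.6 and pandas 2.3.3, were tested on simulated data. Intervals are Wilson 95% intervals (scipy 1.17.1) and cover counting error only.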

Additional observations from a re-analysis of the deposited data

How the results depend on the processing

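Counts were recomputed under 9 alternatives, of which leaving out elements at the ends of other genes and leaving out the 72 h list were chosen after seeing the data. Of 247 values 214 stayed within 1.5 times the main count or kept their direction. A turn of direction was scored only for the stage differences at single genes, and 0 of these turned. Most of the 33 that moved did so with the gene body only, which drops the gap and flanks by construction: the fibrillar pair then had 0, 0, 0 and 0 elements at 8 h, 12 h, 20 h and 72 h and the type IV pair 9, 2, 7 and 0, and the genes with fewer elements at 12 h than at 8 h, more at 20 h than at 12 h and fewer at 72 h than at 20 h were 2, 2 and 2. With 20 kb either side COLP3alpha had 14 elements at 20 h and COLP1alpha 2 at 72 h. Without the 72 h list, 2 regions of the fibrillar pair were listed at 2 or more stages in place of 4. A minimum width of 400 bp removed no element of the pairs. Leaving out replicates could not be done, since no list was of single libraries. No paired analysis was possible because each stage had 1 list and none per library. The scaffold of each gene is inferred, and depth limits what an absence from a list can show, at 72 h above all.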
